A study of Rattus norvegicus with 6 samples.

Results

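The insulin-like growth factor (IGF) genes followed here are the ligands Igf1 and Igf2, the IGF2 receptor Igf2r, and the binding proteins Igfbp2, Igfbp3, Igfbp4, Igfbp5, Igfbp6 and Igfbp7. They are the 9 rows of the deposited table that carry these gene names, out of 32883 genes, and 8 of them had enough reads to be tested among 14670 tested genes. Rat oligodendrocyte precursor cells (OPCs), which divide and mature into myelin-forming oligodendrocytes, were grown from the cerebral cortices of newborn (P0) Sprague Dawley rats, 2 pups per preparation, and purified by shaking. They were kept in Neurobasal with B27 and N2 and received either 5 µM ZJU-37, an inhibitor of the kinase RIPK1, or an equal volume of its solvent DMSO for 36 h, the time the labels give, whereas the methods of the study state a shorter treatment. Polyadenylated RNA of 3 libraries per group was sequenced.

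IGF1 and IGF2 act mainly through the receptor IGF1R, which signals through IRS adaptors, PI3-kinase and AKT, and they are known to promote survival, growth and differentiation of the oligodendrocyte lineage. IGF2R carries no kinase: it takes up IGF2 for degradation and sorts mannose 6-phosphate-tagged enzymes to lysosomes. The IGF binding proteins hold the ligands outside the cell, where proteases release them again. IGFBP7 binds IGFs only weakly. The B27 and N2 supplements contain insulin, so that every library came from cells with a ligand of this receptor family in the medium.

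With ZJU-37, Igf2 and Igfbp7 fell and Igfbp4 rose. Igf2 was 4.04-fold lower, Igfbp7 was 2.28-fold lower and Igfbp4 was 2.18-fold higher than with DMSO. In edgeR's quasi-likelihood test with an adjusted p-value under 0.05, 3 of the 8 tested IGF genes were called, 1 higher and 2 lower. Over all tested genes 15.0% were called, 9.43% higher and 5.58% lower. When the replicate number entered the fit as a block, 5 of the 8 were called, 1 higher and 4 lower, against 32.1% of all tested genes, and the 2 calls this added, Igfbp2 and Igfbp5, did not hold without replicate pair 3. In 4 of the 8, Igf2, Igfbp4, Igfbp5 and Igfbp7, the ranges of the groups did not overlap, as was so for 35.2% of all tested genes. The median log2 fold change of the 8 was -0.16, beside -0.03 for all tested genes. The nature of the replicates limits these tests, because the study calls them biological repeats in one place and plate wells in another, and p-values may then measure only technical spread. In bulk RNA, fewer cells of a type and less RNA per cell cannot be told apart.

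**Figure D1:**
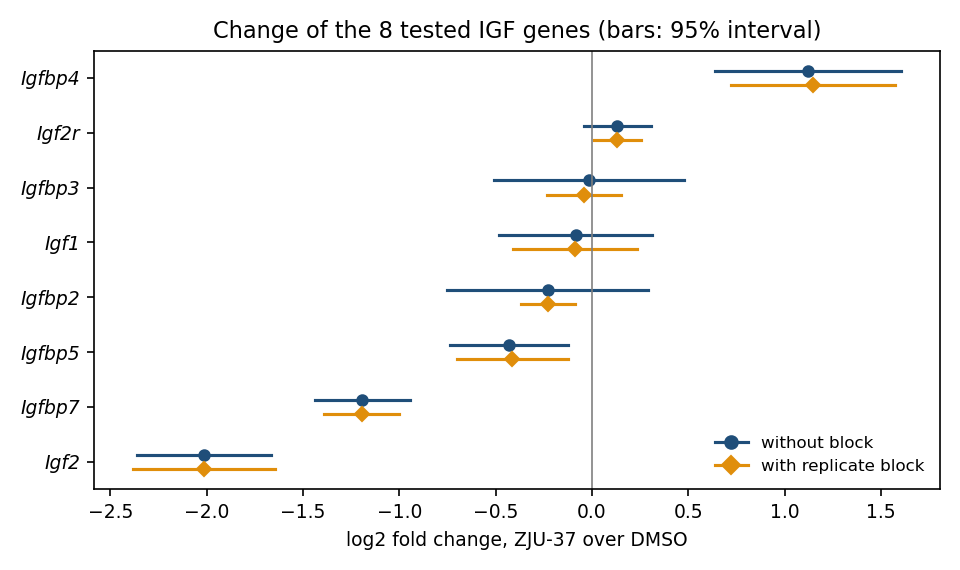
Log2 fold change (x axis, ZJU-37 over DMSO) of the 8 tested IGF genes (y axis) from edgeR without (circles) and with (diamonds) the replicate number as a block, n = 3 libraries per group, and bars give 95% intervals. The intervals of Igf2, Igfbp5 and Igfbp7 lie left of 0 and that of Igfbp4 lies right of 0 in either fit. Those of Igfbp2 and Igf2r leave 0 only with the block. By adjusted p, Igfbp5 was not called without the block, and Igf2r was called in neither fit.

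The libraries held between 13935865 and 24097927 counts, which sets a floor of 3 counts at 0.124 to 0.215 CPM (counts over the library total), for counting error only. All other CPM levels are on the TMM scale. The OPC markers were well expressed: Pdgfra, the receptor for platelet-derived growth factor, had 393 CPM on average with DMSO and 843 CPM with ZJU-37 (log2 fold change 1.10, adjusted p = 0.0182 in edgeR). Of the 8 OPC markers, 4 were higher and 3 lower, the latter including Gpr17, a receptor of committed precursors, at 357 CPM and 33.1 CPM (log2 fold change -3.43). The summed level of 10 oligodendrocyte markers ran from 12856 to 24399 CPM with DMSO and from 5065 to 10186 CPM with ZJU-37, without overlap. Microglial markers, all 13 of them above 1 CPM in every library, summed to between 2607 and 4497 CPM and between 1932 and 3944 CPM. The ranges overlapped, but this sum was lower with ZJU-37 in every replicate pair. In edgeR 0 of the 13 were called, and with the replicate block 6, all lower, against 32.1% of all tested genes. The part of these cell type markers in the changes of the IGF genes was not tested.

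On a per-length scale (FPKM computed from the counts with TMM factors), the IGF genes spanned a wide range. With DMSO the order of mean FPKM levels was Igfbp3 (92.5), Igfbp7 (50.8), Igfbp2 (30.0), Igfbp5 (22.7), Igf2r (16.2), Igf1 (3.62), Igfbp4 (3.56), Igf2 (1.51) and Igfbp6 (0.132). The ranges of Igfbp2 and Igfbp5 overlapped, as did those of Igf1 and Igfbp4, so that these neighbours were not separated by their spread. With ZJU-37 the order of mean FPKM levels became Igfbp3 (91.5), Igfbp2 (25.6), Igfbp7 (22.2), Igf2r (17.8), Igfbp5 (16.8), Igfbp4 (7.72), Igf1 (3.41), Igf2 (0.372) and Igfbp6 (0.170). There the ranges of Igfbp2 and Igfbp7 overlapped, and so did those of Igf2r and Igfbp5. Igfbp4 and Igf1, which lay together with DMSO, were apart with ZJU-37, Igfbp4 above Igf1 in every library.

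**Figure D2:**
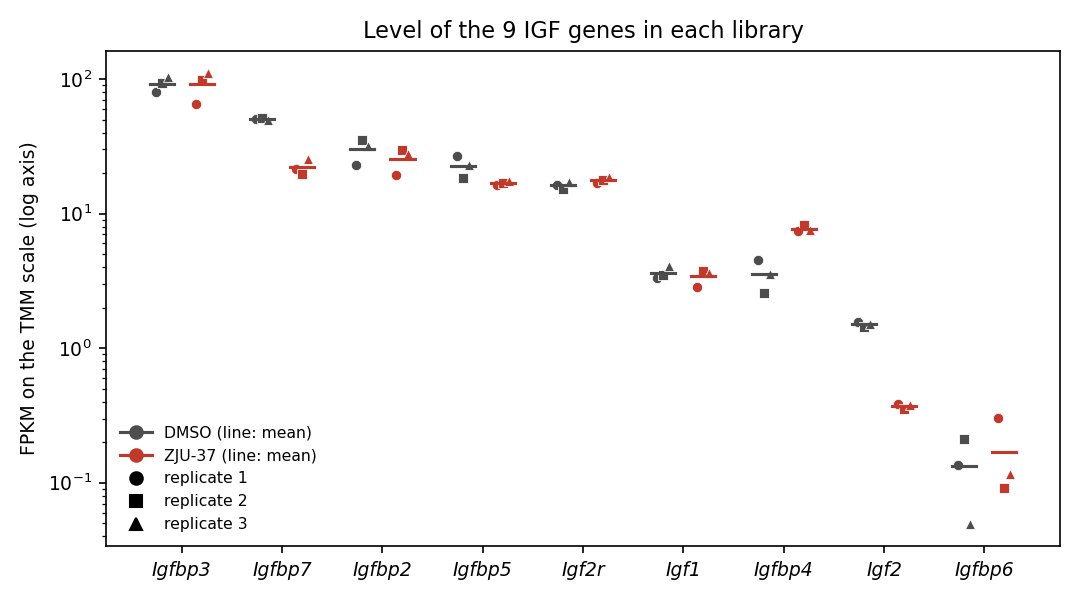
FPKM (y axis, log scale) of the 9 IGF genes (x axis, ordered by the DMSO mean) in each library, DMSO in grey and ZJU-37 in red, with lines at the group means and symbols for replicates 1 to 3. Igfbp3 is highest in both groups, and the Igf2 and Igfbp7 points with ZJU-37 lie below every DMSO point, whereas those of Igfbp4 lie above.

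Of the ligands, Igf2, the imprinted fetal growth factor, had 8.83, 8.13 and 8.54 CPM in DMSO replicates 1, 2 and 3. With ZJU-37 it had 2.16, 1.99 and 2.15 CPM. All 3 ZJU-37 libraries lay far below all DMSO libraries, and the libraries within each group were close together. The means were 8.50 ± 0.353 and 2.10 ± 0.0970 CPM (SD, n = 3 per group), and edgeR gave a log2 fold change of -2.01 (SE 0.15, adjusted p = 4.30e-04). It was lower in 3 of 3 replicate pairs, by log2 differences of -2.03, -2.03 and -1.99. These values rest on few reads, 121, 144 and 161 counts with DMSO and 40, 41 and 52 counts with ZJU-37. By p-value Igf2 stood at place 113 of the 14670 tested genes. On the log2(FPKM + 1) scale its log2 fold change was -0.87 in limma, since that pseudocount exceeds the level with ZJU-37.

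Meningeal fibroblasts, a known source of Igf2 in the brain, were looked for among the markers. Of 9 fibroblast markers in the table, 6 had at least 1 CPM in every library and Slc6a13 was at 0. Their sum ran from 467 to 652 CPM with DMSO and from 344 to 576 CPM with ZJU-37. The ranges overlapped, but the sum, of which Fn1 was the largest part, was lower with ZJU-37 in every replicate pair. Of the 7 tested, 0 were called in edgeR, 0 had an unadjusted p under 0.05, and 0 were called by DESeq2 or limma-voom. With the replicate block 3 were called (Col3a1, Lum and Fn1, all lower), against 32.1% of all tested genes. The part of fibroblasts in the fall of Igf2 was not tested.

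In the deposited coordinates, whose genome build is not given in the sources used here, Igf2 lies on the minus strand of chromosome 1 from 215828102 to 215846911. Its span holds the entries Mir483 and AC098563.1, both with 0 counts in every library. RefSeq gives 2 promoters for Igf2 in the build GRCr8, shown here because Igf2 had the largest log2 fold change of the 8 tested IGF genes. Each runs from 250 bases before to 50 bases after a transcription start, on the minus strand, at chr1:207253931-207254230 for the first and chr1:207250426-207250725 for the second, and capitals mark a GC box (GGGCGG, or CCGCCC where it lies on the opposite strand), the site type bound by SP1-like factors.
Igf2 first promoter: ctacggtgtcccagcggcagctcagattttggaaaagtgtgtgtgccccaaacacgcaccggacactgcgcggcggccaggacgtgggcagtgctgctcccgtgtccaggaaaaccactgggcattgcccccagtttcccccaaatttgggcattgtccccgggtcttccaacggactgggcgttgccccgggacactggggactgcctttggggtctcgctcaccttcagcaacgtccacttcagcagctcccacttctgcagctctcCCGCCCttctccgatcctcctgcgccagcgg
Igf2 second promoter: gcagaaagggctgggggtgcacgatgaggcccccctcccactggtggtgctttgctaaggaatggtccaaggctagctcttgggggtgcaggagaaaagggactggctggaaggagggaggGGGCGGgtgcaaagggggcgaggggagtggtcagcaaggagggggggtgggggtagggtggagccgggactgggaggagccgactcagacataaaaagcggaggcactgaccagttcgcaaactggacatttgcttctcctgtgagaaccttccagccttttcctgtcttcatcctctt
The GC box starts at +20 on the opposite strand in the first promoter and at -129 in the second. GC made up 63.3% of the bases of the first and 60.7% of the second, against a median of 51.7% over 33469 rat promoters, of which 33.1% held a GC box.

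Igf1, the ligand that microglia and other glia release, differed little between the groups. It had 6.35, 6.77 and 7.80 CPM in the DMSO libraries. The ZJU-37 libraries had 5.51, 7.27 and 6.94 CPM. The groups overlapped, with the lowest value in ZJU-37 replicate 1 and the highest in DMSO replicate 3. The log2 fold change was -0.09 (95% interval -0.48 to 0.31, edgeR adjusted p = 0.786), so that a change of the size seen for Igf2 lies outside the interval. The ratio of Igf1 to Igf2 in FPKM was 2.41 ± 0.286 with DMSO and 9.22 ± 1.64 with ZJU-37 (SD, n = 3 per group), the lowest ZJU-37 ratio being 7.47 and the highest DMSO ratio 2.68. The summed FPKM level of both ligands was 5.13 ± 0.380 and 3.79 ± 0.474.

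Igf2r, the uptake receptor for Igf2, had 143, 133 and 152 CPM in the DMSO libraries. With ZJU-37 it had 148, 156 and 164 CPM. It was higher with ZJU-37 in 3 of 3 replicate pairs, by small steps, and the groups overlapped because ZJU-37 replicate 1 lay below DMSO replicate 3. The log2 fold change of 0.13 (95% interval -0.04 to 0.31) missed the threshold (edgeR adjusted p = 0.307, and 0.0959 with the replicate block). Its span, from 48176106 to 48264477 on chromosome 1, holds a short RNA entry with 4 counts in all. The rest of the mannose 6-phosphate route showed no called gene: of 15 tested genes for the smaller receptor M6pr, the tagging enzymes and lysosomal hydrolases, 0 were called in edgeR, 0 had an unadjusted p under 0.05, and 0 were called by DESeq2 or limma-voom. With the replicate block 5 of the 15 were called, all lower, 33.3% beside 32.1% of all tested genes.

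Among the binding proteins, Igfbp7 fell in every library. It had 56.1, 56.8 and 55.2 CPM with DMSO. With ZJU-37 it had 23.7, 21.7 and 28.2 CPM. The 3 DMSO libraries were almost level, and every ZJU-37 library was at about the same lower level, without overlap. Mean levels were 56.0 ± 0.838 and 24.5 ± 3.33 CPM (SD, n = 3 per group), and the log2 fold change was -1.19 (SE 0.10, edgeR adjusted p = 6.67e-04). The log2 differences within replicate pairs were -1.24, -1.39 and -0.97. In FPKM, Igfbp7 was the second most abundant binding protein transcript with DMSO and fell to the level of Igfbp2 with ZJU-37.

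Igfbp7 is also a known marker of blood vessel cells, whose other markers were low here. Of 6 endothelial markers in the table, 3 had at least 1 CPM in every library and Cldn5 was at 0. Their sum was between 20.5 and 23.5 CPM with DMSO and between 13.2 and 17.0 CPM with ZJU-37, without overlap, and Vwf (4.42 and 2.21 CPM, edgeR adjusted p = 0.0204) was called lower. Mural cell markers summed to between 51.4 and 70.3 CPM and between 37.1 and 51.9 CPM, and 1 of 4 tested, Tagln, was called lower. The mural sum was lower with ZJU-37 in 3 of 3 pairs, and with the block Tagln (edgeR adjusted p = 9.70e-04) and Notch3 (0.00653) were called lower. The mural markers did not all move one way: Myh11 had 3.65 and 5.86 CPM on average, higher in 3 of 3 pairs (log2 fold change 0.69, edgeR adjusted p = 0.111, and 0.0104 with the block). The endothelial markers Pecam1 and Ly6c1 were not found by name. The part of endothelial or mural cells in the fall of Igfbp7 was not tested.

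Igfbp7 lies on the plus strand of chromosome 14, from 33010300 to 33070190 in the deposited coordinates. Its span overlaps those of Polr2b, which had 15336 counts over the 6 libraries, and of LOC103694404, which had 648, both on the minus strand, while Igfbp7 had 4382. Whether strand was used in counting is not given in the sources used here, and the counts of Igfbp7 are uncertain to that extent. Its RefSeq promoter (GRCr8, chr14:31091486-31091785, plus strand) is shown because it was the richest in GC among the 10 promoters of the 9 genes, 74.3%, and held the most GC boxes, marked in capitals.
Igfbp7 promoter: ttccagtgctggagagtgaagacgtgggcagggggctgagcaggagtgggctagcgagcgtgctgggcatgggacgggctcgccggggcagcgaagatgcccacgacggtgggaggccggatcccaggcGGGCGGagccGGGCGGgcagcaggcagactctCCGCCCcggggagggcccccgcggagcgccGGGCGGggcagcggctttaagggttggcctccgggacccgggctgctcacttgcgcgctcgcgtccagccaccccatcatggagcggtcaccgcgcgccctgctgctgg
The boxes start at -121, -111 and -59 on the printed strand and at -89 on the opposite strand. The sequence holds 32 CpG dinucleotides, against a median of 7 over all rat promoters.

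Igfbp4, a binding protein that holds IGFs until the protease PAPPA cuts it, was the only IGF gene called higher. It had 9.85, 5.59 and 7.80 CPM in DMSO replicates 1, 2 and 3. The ZJU-37 replicates had 16.0, 18.0 and 16.4 CPM. Every ZJU-37 library was above every DMSO library, and the DMSO libraries were spread more widely. This gave means of 7.75 ± 2.13 and 16.8 ± 1.03 CPM (SD, n = 3 per group) and a log2 fold change of 1.12 (SE 0.20, edgeR adjusted p = 0.0122). All 3 replicate pairs were higher, by 0.70, 1.69 and 1.07 on the log2 scale. The call came nearest to its limit without DMSO replicate 3, where the adjusted p was 0.0483. The counts behind it were 135, 99 and 147 with DMSO and 297, 371 and 397 with ZJU-37.

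Igfbp4 lies on the plus strand of chromosome 10, from 86950557 to 86962578. Its RefSeq promoter (GRCr8, chr10:84491221-84491520, plus strand) is given because it alone among the 10 promoters held a TATA box (TATAAA, in capitals), at -40. It held no GC box, and neither did the promoters of Igf1, Igfbp3, Igfbp5 and Igfbp6.
Igfbp4 promoter: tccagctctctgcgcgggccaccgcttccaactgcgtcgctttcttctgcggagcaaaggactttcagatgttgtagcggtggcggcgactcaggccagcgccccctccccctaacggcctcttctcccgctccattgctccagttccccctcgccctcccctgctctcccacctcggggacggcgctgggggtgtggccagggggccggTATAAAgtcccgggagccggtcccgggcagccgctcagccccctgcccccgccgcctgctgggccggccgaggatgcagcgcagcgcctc
TATAAA occurred on either strand in 14.2% of the 33469 rat promoters. The study concerned the NF-κB pathway, and none of the 10 promoters matched the NF-κB consensus on either strand, which 4.18% of all promoters did. No AP-1 site (TGACTCA) was found in them either (4.63% of all promoters), a FOXO site (GTAAACA, 3.78%) was found only in that of Igfbp6, and E boxes (CACGTG, 6.42%) only in those of Igf2r and Igfbp2. The motifs searched did not overlap each other in these sequences, and a match describes letters in the sequence and no binding.

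Igfbp2 and Igfbp5 are neighbours on chromosome 9, from 80118029 to 80144789 on the plus strand and from 80150211 to 80167033 on the minus strand, so that their ends point at each other across 5421 bases. Both were lower with ZJU-37 in 3 of 3 replicate pairs, and over all 6 libraries in edgeR both passed the threshold only with the replicate block. With the block, the call of Igfbp2 was lost without replicate pair 2 (adjusted p = 0.128) or 3 (0.122), and that of Igfbp5 without pair 3 (0.123). Igfbp5, a binding protein that attaches to the extracellular matrix, had 156, 108 and 134 CPM with DMSO. It had 94.97, 98.9 and 102 CPM with ZJU-37. The ZJU-37 libraries were level and all below the DMSO libraries, of which replicate 2 lay closest to them. The log2 fold change was -0.43 (95% interval -0.74 to -0.12), with an adjusted p of 0.0725 in edgeR, 0.0443 with the block and 0.0238 in DESeq2. Without the block and without DMSO replicate 2 the log2 fold change was -0.56 and the adjusted p 0.0182, so that its call turned on the tool, the block and the libraries included.

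Igfbp2, a binding protein abundant in the developing brain, had 29.3, 45.4 and 40.6 CPM in the DMSO libraries. With ZJU-37 it had 24.6, 38.2 and 35.4 CPM. The groups overlapped widely, yet each ZJU-37 library was below the DMSO library of the same number, by log2 differences of -0.25, -0.25 and -0.20. Without the block the log2 fold change of -0.23 had an SE of 0.22 (edgeR adjusted p = 0.554), and leaving out each library gave -0.39 to -0.05. With the block the SE was 0.06 (adjusted p = 0.0203), a call that held without replicate pair 1 (0.0204) but not without pair 2 or 3. Replicate 1 was lowest and replicate 2 highest in either group. The summed microglial markers had the same order, 2607, 4497 and 3519 CPM with DMSO and 1932, 3944 and 2983 CPM with ZJU-37, and their part in the level of Igfbp2 was not tested.

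Igfbp3, the main carrier of IGFs in serum and here the most abundant binding protein transcript, had 193, 224 and 251 CPM with DMSO. With ZJU-37 it had 156, 238 and 266 CPM. The lowest and the highest value both came from ZJU-37 libraries, and the pairs moved in different directions, by -0.30, 0.09 and 0.08 on the log2 scale. The log2 fold change was -0.02 (95% interval -0.51 to 0.48, edgeR adjusted p = 0.971), an interval that would hold a moderate change in either direction. With the block it narrowed to -0.23 to 0.15. Igfbp6, which prefers IGF2 as its ligand, had 2, 4 and 1 counts with DMSO and 6, 2 and 3 counts with ZJU-37. These values lie at or near the floor of 3 counts, and no change was detectable at this depth.

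**Figure D3:**
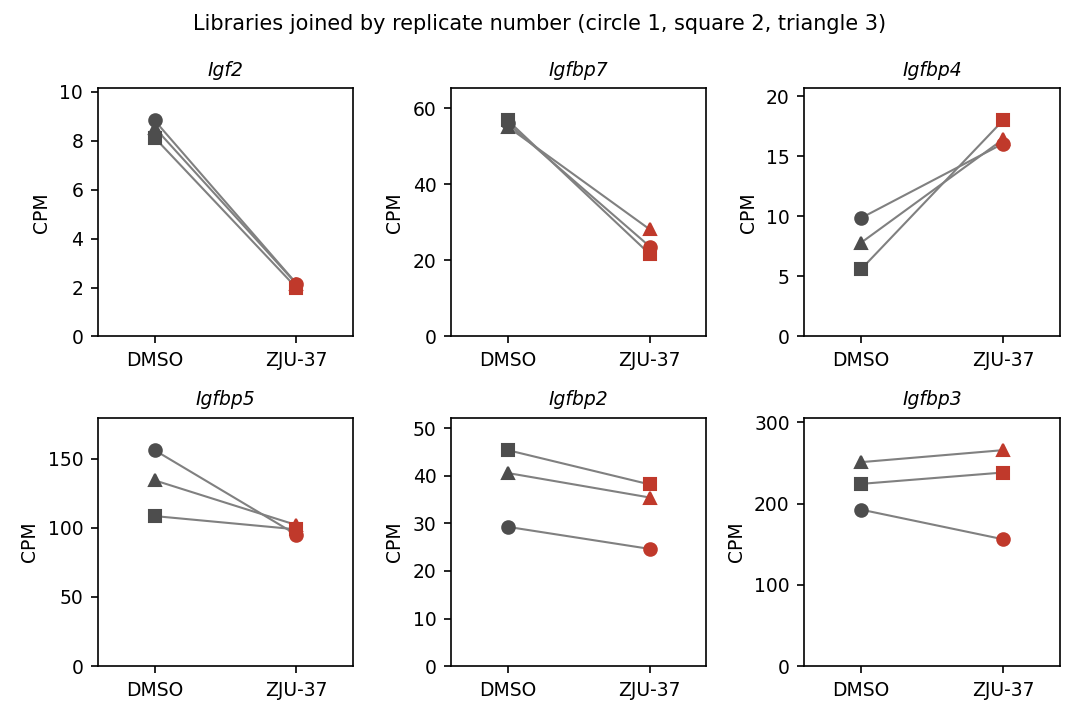
CPM (y axes, from 0) of 6 IGF genes in the DMSO and ZJU-37 libraries (x axes), with lines joining libraries of the same replicate number. All 3 lines fall for Igf2, Igfbp7, Igfbp5 and Igfbp2 and rise for Igfbp4, and those of Igfbp3 go both ways.

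As a pool, the 6 binding protein transcripts differed in makeup between the groups, while their totals overlapped. Their summed FPKM was 185, 202 and 213 in the DMSO libraries. It was 129, 174 and 189 in the ZJU-37 libraries. The ranges overlapped, since ZJU-37 replicate 3 exceeded DMSO replicate 1, but the sum was lower with ZJU-37 in 3 of 3 replicate pairs, with no test applied. Igfbp7 made up 25.5% ± 1.97 of this sum with DMSO and 13.8% ± 2.64 with ZJU-37, and Igfbp4 made up 1.80% ± 0.595 and 4.81% ± 0.852 (SD, n = 3 per group). Igfbp3 made up 46.2% ± 2.90 and 55.2% ± 4.48, a rise in its share while its own level was not called. The shares of all 3 did not overlap between the groups, with no test applied, whereas those of Igfbp2 (15.0% and 15.6%) and Igfbp5 (11.4% and 10.5%) did. The ratio of Igfbp7 to Igfbp4 in FPKM ran from 11.2 to 20.1 with DMSO and from 2.38 to 3.39 with ZJU-37. Binding protein FPKM per ligand FPKM was 39.0 ± 1.45 with DMSO and 43.1 ± 3.84 with ZJU-37, with overlapping ranges and a higher value with ZJU-37 in 3 of 3 replicate pairs.

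**Figure D4:**
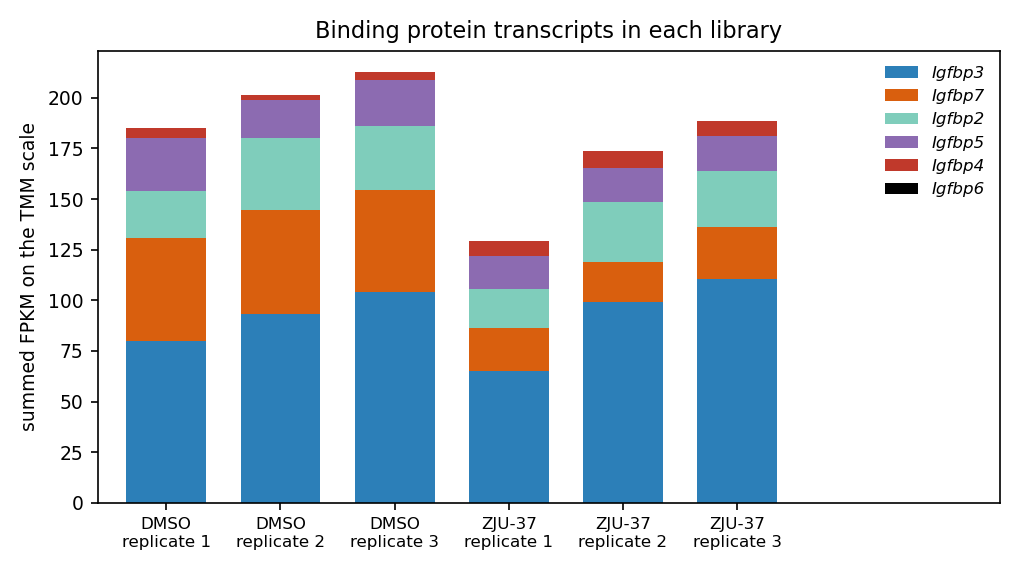
Summed FPKM (y axis) of the 6 binding protein transcripts in each of the 6 libraries (x axis), divided by gene. The Igfbp7 segment is shorter and the Igfbp4 segment taller in the ZJU-37 libraries, and Igfbp6 is too low to be visible.

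Other genes of the pathway were taken from 6 lists written from general knowledge, with 86 genes, of which 84 were in the table and 76 were tested. In edgeR 8 of the 76 were called, 3 higher and 5 lower, 10.5% against 15.0% of all tested genes. The count was 5 without DMSO replicate 1, DMSO replicate 3 or ZJU-37 replicate 3, and 31 with the replicate block, 10 higher and 21 lower, 40.8% beside 32.1% of all tested genes. Among 10 tested proteins with an IGFBP domain outside the classical family, Crim1, a membrane protein that binds bone morphogenetic proteins, was lower with ZJU-37, at 75.3 ± 3.08 and 37.6 ± 3.36 CPM (SD, n = 3 per group, 95% interval of the log2 fold change -1.20 to -0.81, edgeR adjusted p = 5.83e-04). It was the only one called, 10% beside 15.0% of all tested genes. Under the block 4 were called, all lower, 40% beside 32.1%. Their median log2 fold change was -0.49.

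Of 8 tested proteases that cut binding proteins, and inhibitors of these proteases, 1 was called, and 4 with the block. These shares were 12.5% and 50%, beside 15.0% and 32.1% of all tested genes. Adam12, a metalloprotease known to cut IGFBP3 and IGFBP5, had 29.3, 32.4 and 36.0 CPM with DMSO. It had 82.2, 74.6 and 75.5 CPM with ZJU-37. The ZJU-37 libraries all lay well above the DMSO libraries, with a log2 fold change of 1.25 and an adjusted p of 4.30e-04 in edgeR. Pappa, the protease for IGFBP4, was not called, with 7.19 and 7.56 CPM on average (log2 fold change 0.07, adjusted p = 0.859), and its inhibitor Stc2 had 10.4 and 11.9 CPM (adjusted p = 0.733). These 2 genes were picked after their values were seen, as the partners of Igfbp4.

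Of 7 tested regulators of the Igf2 locus or its RNA, 0 were called in edgeR and 2 had an unadjusted p under 0.05. DESeq2 called 1 and limma-voom called 1. With the block 2 were called, 28.6% beside 32.1% of all tested genes. The largest difference was that of Hmga2, an architectural DNA-binding protein, which was singled out after its values were seen. It had 9, 45 and 23 counts with DMSO and 80, 95 and 101 counts with ZJU-37, without overlap (log2 fold change 1.54, adjusted p = 0.0573, and 0.00601 with the block). The insulator protein Ctcf, singled out likewise, had 111 and 125 CPM on average and was called only with the block (log2 fold change 0.17, adjusted p = 0.0275). The imprinted neighbour H19 was not found by name and was not analysed here.

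At the receptors, Igf1r had 30.3 ± 1.42 CPM with DMSO and 29.2 ± 1.38 CPM with ZJU-37 (SD, n = 3 per group). Its log2 fold change was -0.05 (95% interval -0.23 to 0.12, edgeR adjusted p = 0.697). The insulin receptor Insr had 47.9 ± 2.45 and 46.7 ± 3.13 CPM, with a log2 fold change of -0.04 (95% interval -0.22 to 0.14, adjusted p = 0.798). Differences of the size seen in the called IGF genes lie outside both intervals. Below them, the adaptor Irs1 fell from 31.4 ± 4.58 to 19.6 ± 0.879 CPM (log2 fold change -0.68, edgeR adjusted p = 0.00996). It was the only one of 10 tested receptors and adaptors called, 10% beside 15.0% of all tested genes. With the block 6 were called, 2 higher and 4 lower, 60% beside 32.1%.

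Among 26 tested genes of the PI3-kinase, AKT, FOXO and mTOR branch, 5 were called, 2 higher and 3 lower, 19.2% beside 15.0% of all tested genes. Pik3r3, a regulatory subunit of PI3-kinase, fell from 56.0 to 33.1 CPM (log2 fold change -0.76, edgeR adjusted p = 0.0105). Rictor, a core subunit of the mTORC2 complex, fell from 48.7 to 31.3 CPM (log2 fold change -0.64, adjusted p = 0.0418), and Foxo3, a transcription factor held out of the nucleus by AKT, fell from 43.6 to 36.2 CPM (log2 fold change -0.27, adjusted p = 0.0324). Tsc2, a brake on mTORC1, rose from 98.2 to 117 CPM (log2 fold change 0.25, adjusted p = 0.0308), and Eif4ebp1, which holds back translation until mTORC1 phosphorylates it, rose from 57.4 to 85.1 CPM (log2 fold change 0.57, adjusted p = 0.0140). With the block 10 of the 26 were called, 38.5% beside 32.1% of all tested genes. These genes act at different steps of the branch and some of them against each other.

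**Figure D5:**
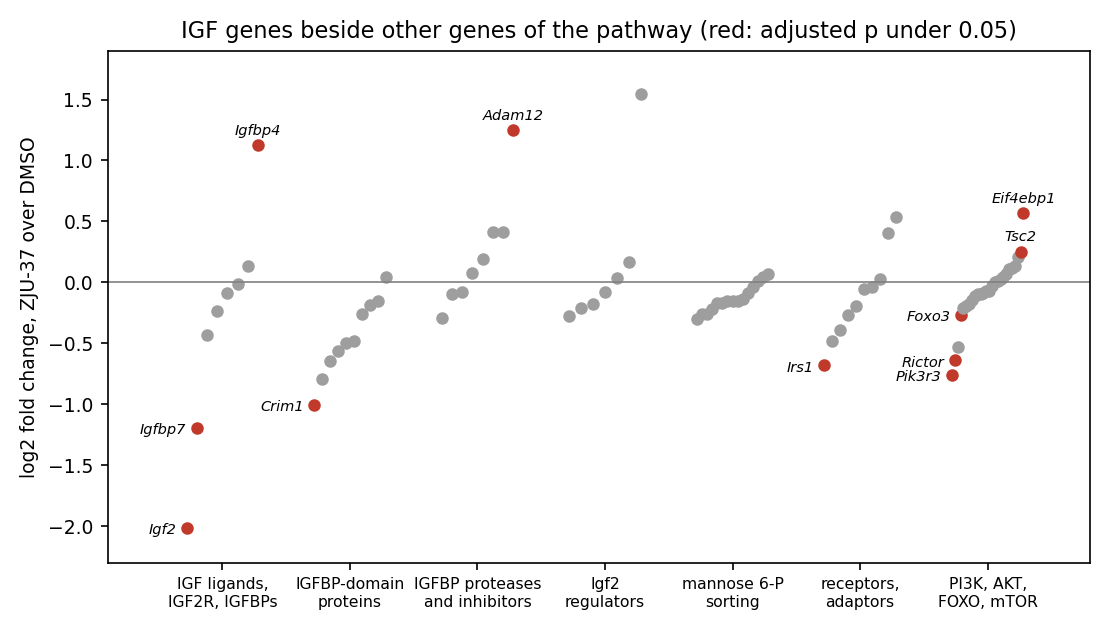
Log2 fold change (y axis, ZJU-37 over DMSO) of the 8 tested IGF genes and of the 76 tested genes of the 6 pathway lists (x axis), where red points with names have an adjusted p under 0.05 in edgeR. The IGF genes hold the lowest point, Igf2 at -2.01, and the highest point is Hmga2 at 1.54, which is not called.

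The genes whose profile over the 6 libraries lay closest to that of an IGF gene were found among 10301 genes with at least 10 CPM on average, by the root mean square distance of centred log2 CPM. For Igf2 the nearest was Ust, an enzyme that sulfates glycosaminoglycans, at a distance of 0.0625, which went from 27.0 to 6.36 CPM, followed by Sept5 and Caly. For Igfbp7 the nearest were Abat, the enzyme that breaks down GABA (distance 0.114, from 155 to 64.7 CPM), Ptprk and Gfra2. Igfbp4 lay closest to Csrp2 (0.116), Neto2 and Camk2b, and Igfbp5 to Odr4 (0.0604), Ippk and Hspb11. The nearest to Igfbp2 were Il18bp (0.0440), Sh3bgrl3 and Il21r, and the nearest to Igfbp3 were Stat2 (0.0269), Elk3 and Stat4. Igf1 was nearest to Fam107b (0.0365), Htatip2 and N4bp1, and Igf2r to Hexim1 (0.0215), Rnf121 and Smad2. These distances share the 6 libraries and their depths, and describe likeness over few points.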

How the data were processed

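Poly-A RNA of 6 libraries was sequenced for the authors by Novogene. Per the labels' processing notes the tools were HISAT2 2.0.5, StringTie 1.3.3b and featureCounts 1.5.0, and the genome build is not given in the sources used here. The authors deposited raw counts per gene, FPKM values made from them by the authors, and gene length. The deposited table also holds group means, fold changes and p-values of the authors' own comparison, which were not used. There were 0 value columns without a sample. Groups and replicate numbers come from the sample titles.

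Counts were filtered with filterByExpr, scaled by TMM (factors between 0.981 and 1.04) and tested over the 6 libraries by the quasi-likelihood functions glmQLFit (robust) and glmQLFTest of edgeR 4.0.16 under R 4.3.3, with Benjamini-Hochberg adjustment over 14670 genes. The script was tested on simulated data. CPM and FPKM values in the text are on the TMM scale. Exact permutation of 3 against 3 libraries cannot go below p = 0.1 and was not used. Same-numbered libraries deviated together from their group means (r = 0.39, 0.31 and 0.33 across genes, which are not independent). Differently numbered libraries had r from -0.27 to -0.01. The replicate numbers of the labels were therefore taken to pair the libraries, and a fit with the number as a block was run. The labels state no pairing, so this choice rests on the same data as the fit.

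The IGF genes and all lists were chosen with earlier results of these data known. Named beside them were all called genes of the 6 pathway lists, Igf1r, Insr and 3 nearest profiles per tested gene. Pappa, Stc2, Hmga2 and Ctcf, and the cell type markers given with values, were picked outside this rule after their values were seen. Pappa was matched as Pappa1 through the RefSeq table of assembly GRCr8. H19, Irs4 and the markers Col6a3, Pecam1 and Ly6c1 were not found by name. Promoters come from RefSeq (GRCr8), where all 9 genes matched. Alternatives were DESeq2 1.42.0, limma-voom (limma 3.58.1), limma on log2 FPKM with pseudocounts of 1 and 0.1, different scalings, filters and thresholds, thinning to the smallest library, the block and leaving out each library. The block with a pair left out, the marker sums and the binding protein pool were added after values were seen.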

Additional observations from a re-analysis of the deposited data

How the results depend on the processing

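Igf2, Igfbp4 and Igfbp7 kept their direction and stayed under the threshold in each of the 20 refits, with log2 fold changes from -2.05 to -0.87, 0.89 to 1.37 and -1.32 to -1.08. With adjusted p under 0.01 in place of 0.05, 0 IGF genes were called higher and 2 lower, with 3 pathway genes and 1053 genes in all, and with an unadjusted p under 0.05 there were 19 pathway genes and 4205 in all. With the replicate block 4 IGF genes were called lower (Igfbp2 and Igfbp5 added), 31 pathway genes and 4705 genes in all, and the block changed no other call of an IGF gene. With the block and without replicate 1, 2 IGF genes were called higher (Igf2r added) and 4 lower. With the block, 3 were called lower without replicate 2 (Igfbp2 lost) and 2 without replicate 3 (Igfbp2 and Igfbp5 lost), with 1 higher in each. Leaving out each library gave 1306 to 1927 genes in all (1306 without DMSO replicate 2, 1351 without ZJU-37 replicate 3) and 5 to 8 pathway genes. The sign of Igf1, which was called in none of the refits, turned with thinned counts (0.021), without DMSO replicate 3 (0.0025) and without ZJU-37 replicate 1 (0.041), leaving out each library giving -0.15 to 0.041. That of Igfbp3, also called in none, turned with library size only (0.0065), thinned counts (0.0092), without DMSO replicate 3 (0.078), without ZJU-37 replicate 1 (0.19), and with the block and without replicate 1 (0.091), leaving out each library giving -0.15 to 0.19. The cause of these turns was not tested. Other scalings moved the median of all genes only between -0.03 and 0.0029. Depth limits Igfbp6, which could not be tested.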
